A study of Mus musculus with 10 samples.

Results

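The smooth muscle contractile apparatus was followed here through 10 genes, Acta2, Actg2, Myh11, Myl9, Mylk, Tagln, Cnn1, Tpm2, Lmod1 and Des, taken by symbol from the 24059 gene symbols of a table of read counts. All 10 had counts in at least 1 mouse, and 5 of them, Acta2, Mylk, Tagln, Tpm2 and Des, passed the filter on low counts. The counts came from the lungs of 10 female C57Bl/6 mice, 14 weeks old, whose lungs had been flushed with PBS before the RNA of the entire organ was taken. For 8 weeks, 5 mice (FO) ate a high-fat diet rich in omega-3 fatty acids from menhaden fish oil with some corn oil (TD.07500) and 5 mice (CO) ate a high-fat diet rich in saturated fat from coconut oil with some olive and corn oil (TD.08081). Both arms therefore ate a high-fat diet, and no mice on ordinary chow were analysed here. The comparison asks whether the contractile genes of the lung differ between these diets, in a study of how readily the airways narrow.

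Smooth muscle cells wrap the airways and the vessels of the lung. They shorten when actin filaments, here of alpha (Acta2) and gamma (Actg2) smooth muscle actin, slide along filaments of smooth muscle myosin heavy chain (Myh11). Calcium activates myosin light chain kinase (Mylk), which phosphorylates the regulatory light chain (Myl9), while calponin (Cnn1), transgelin (Tagln), beta tropomyosin (Tpm2) and leiomodin (Lmod1) bind or nucleate the actin filament and desmin (Des) forms intermediate filaments. Many of these genes are switched on by serum response factor (Srf) and its partner myocardin (Myocd) through a short DNA word, the CArG box. Several of the 10 are not made by smooth muscle alone: Acta2 is also made by pericytes and myofibroblasts, Mylk by endothelium, and Des and Tpm2 by heart and skeletal muscle.

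In RefSeq (GRCm38.p6, the assembly behind mm10), Acta2 lies at chr19:34240336-34255585, Actg2 at chr6:83512909-83536251, Myh11 at chr16:14194527-14292188, Myl9 at chr2:156775408-156781657 and Mylk at chr16:34745199-35002436. Tagln lies at chr9:45929628-45936058, Cnn1 at chr9:22099221-22109221, Tpm2 at chr4:43513726-43523583, Lmod1 at chr1:135324813-135368065 and Des at chr1:75360292-75368579. The exons of 3 members overlap exons of genes on the other strand. For Tagln the overlap, with Pcsk7 and Gm48529, covered 971 of 1595 exonic bases, against 557 of 8091 for Mylk and 220 of 3028 for Des. Whether strand was used in counting is not given in the sources used here, so the counts of Tagln are uncertain. Stretches of 50 bases that also occur in transcripts of another gene, read on either strand, made up 48.3% of those in Tagln, 5.81% in Des and 4.14% in Mylk. These 3 shared them with the overlapping genes. The share was 0.352% in Acta2, shared with Actg1 and its copies, and 0.391% in Myh11, shared with Myh9 and Myh10. It was 0% in Actg2, Myl9, Cnn1, Tpm2 and Lmod1.

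Promoters, taken as 250 bases before to 50 bases after a gene's start, were found in the RefSeq table for 7 of the 10 genes (Acta2, Myl9, Mylk, Cnn1, Tpm2, Lmod1 and Des). The starts are those of the promoter table and are not always the outer end of the interval given above. For Mylk the window (chr16:34784700-34784999) lies well inside that interval, so its results do not describe the outer end of the gene. The CArG box, which is CC and GG on either side of 6 bases that are each A or T and reads as a CArG box on both strands, was present in 1 of the 7, that of Myl9, and in 1.63% of all 32851 promoters in the table. The word TATAAA, searched on both strands and able to overlap the box, was in 0 of the 7 and in 13.6% of all promoters. The stretch of the Myl9 promoter that ends at the base before the gene (chr2:156775214-156775407, plus strand, GRCm38.p6) is shown because it holds this box, which begins 161 bases before the start used by the table and is set in capitals:
Myl9 promoter: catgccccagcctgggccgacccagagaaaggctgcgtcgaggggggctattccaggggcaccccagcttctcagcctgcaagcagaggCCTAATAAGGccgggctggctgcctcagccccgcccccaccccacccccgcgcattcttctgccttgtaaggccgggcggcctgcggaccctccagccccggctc
Words with 1 base that departs from the box were in 3 of the 7 promoters and in 19.9% of all promoters. The promoter of Acta2 held CCCTATATGG and CCTTGTTTGG, which begin 84 and 34 bases before the start used by the table. That start and both words lie within the Acta2 interval given above. These matches describe letters in short windows, and the RNA counts do not bear on whether any factor binds there.

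The libraries were shallow for these genes. Total counts ran from 229766 to 1124963 per mouse, of which the ribosomal RNA gene Rn45s took 21.8% to 87.0%, so that 45177 to 473254 counts were left for all other genes. The 10 genes had 2797 counts in all 10 mice together, 46.2% of them from Mylk, and made up between 0.119% and 0.182% of the counts other than Rn45s. This share was highest in FO mouse 4 (0.182%, exact binomial 95% interval 0.165% to 0.200%), FO mouse 2 (0.179%) and CO mouse 5 (0.165%), and its median was 0.121% over FO mice and 0.122% over CO mice. FO mouse 2 and CO mouse 5 also stood apart by the nuclear RNA Malat1, which took 8.53% and 6.15% of their counts other than Rn45s and at most 1.05% in every other mouse. The study names TruSeq or riboZero kits, which differ in how they treat ribosomal RNA. Whether both were used among these mice, and which kit was used for each, is not given in the sources used here. A count of 3, the limit that a count of 0 allows, corresponded to 2.33 to 15.6 CPM (counts per 1000000 after scaling) depending on the mouse. These values hold for the scale of all genes with any count. On the scale of the filtered genes the same limit ran from 2.29 to 19.9 CPM. Intervals and limits of this kind cover counting error only.

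Per unit of exonic length, Mylk, Tagln and Tpm2 led the contractile genes, and Actg2 was last. On the scale of CPM per kb of merged exons, Mylk had 24.9 ± 6.61 and Tagln 22.5 ± 10.3 (SD, n = 10 mice, both diets). Tpm2 had 14.2 ± 8.15, Myl9 12.3 ± 6.23, Acta2 12.1 ± 7.07 and Des 10.003 ± 6.17 on the same scale. The motor itself, Myh11, had 6.28 ± 7.46 with a median of 3.17, since 1 mouse held a far higher value than the others. Lmod1 had 4.27 ± 3.31, Cnn1 2.71 ± 2.06 and Actg2 0.980 ± 1.38 CPM per kb. Neighbours in this order were not separated: the higher gene was above the next in between 4 and 8 of the 10 mice. The order was the same when the longest transcript was used as the length. The place of Tagln is uncertain, since 971 of its 1595 exonic bases overlap other genes and the strand setting is not given. Neither length allows for this overlap.

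**Figure D1:**
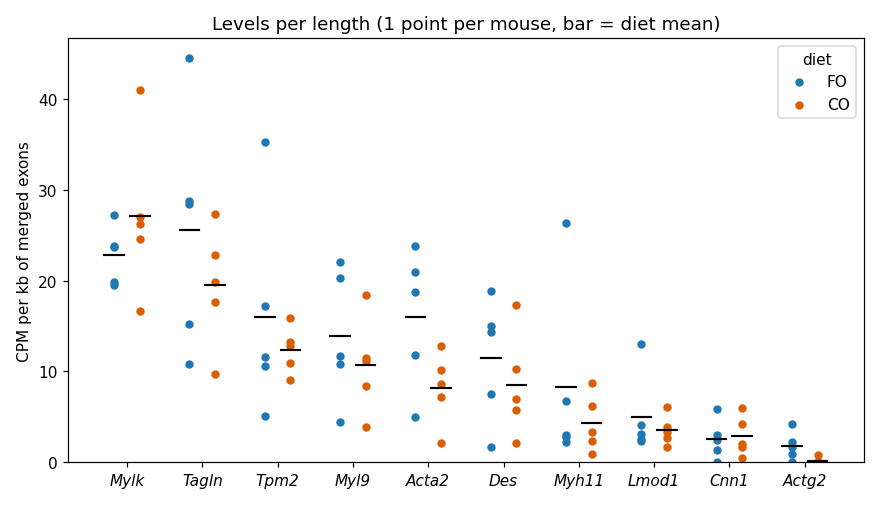
Level of each of the 10 genes (x axis) in CPM per kb of merged exons (y axis, linear from 0), with 1 point per mouse, FO in blue and CO in orange, and a black bar at each diet mean. Mylk (24.9 ± 6.61, SD over 10 mice) and Tagln (22.5 ± 10.3) lead, Actg2 (0.980 ± 1.38) is lowest, and single FO points lie far above the rest for Myh11 and Lmod1. The level of Tagln is uncertain because its exons overlap those of other genes.

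For the diet, 3 of the 10 contractile genes reached an unadjusted p under 0.05, the threshold of the study, all of them higher in the FO mice: Acta2, Myh11 and Actg2. None passed after adjustment over all genes tested, and Acta2 was the only one of the 3 that passed the filter on low counts. Among the 5 genes that passed the filter on low counts, 1 was called (edgeR's quasi-likelihood test), where 1.68% of the 2438 genes tested were called higher and 2.91% were called in either direction. In the fit of all 14161 genes with any count, 3 of 10 were called, against 2.58% of genes called higher and 4.15% in either direction. The log2 fold change (FO minus CO) was above 0 in 4 of the 5 filtered genes, with a median of 0.43, while 50.6% of all genes tested were above 0 with a median of 0.00. Over any count, 9 of 10 were above 0 with a median of 0.51, against 54.0% of genes and a median of 0.05. With each gene taken from its own fit, 9 of 10 were also above 0, but with library size alone as the scale 4 of 10 were. On that scale the median moved to -0.43 for all genes with any count and to -0.55 for all filtered genes. Cnn1, at 0.00, is among the 9. For all 10 genes the CPM values of the diets overlapped. Groups that do not overlap were seen for 0.410% of filtered genes and 0.424% of genes with any count. Because the RNA came from entire lungs, a difference in the number of smooth muscle cells and one in the RNA per cell cannot be told apart.

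**Figure D2:**
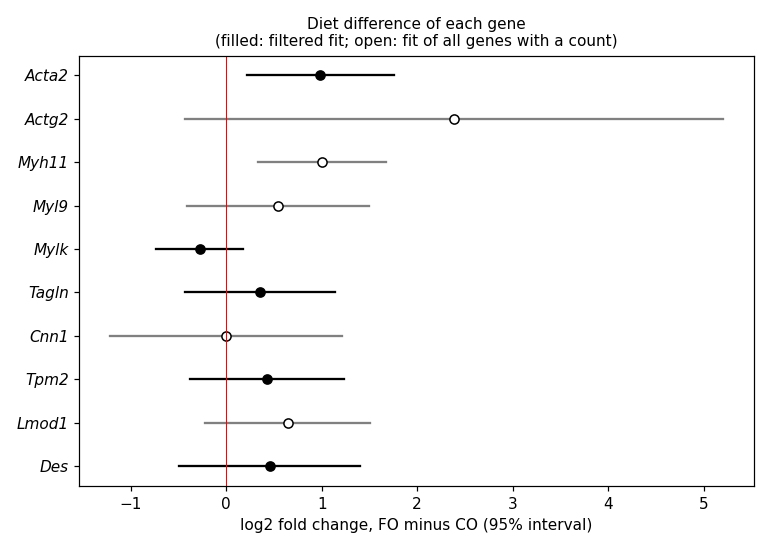
Log2 fold change of each gene, FO minus CO (x axis), with its 95% interval as a line; filled points come from the fit of filtered genes and open points from the fit of all genes with any count. The intervals of Acta2 (0.21 to 1.76) and Myh11 (0.33 to 1.67) lie above 0, that of Actg2 is the widest (-0.43 to 5.20), and that of Mylk is centred at -0.28. Intervals are centred on shrunk fold changes, and that of Actg2 is not the interval of its test.

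Acta2, which encodes the main actin of contractile smooth muscle, was the only 1 of the 10 called in the filtered fit, and its call held under 18 of 20 alternatives. Its level was 24.2, 37.4, 12.9, 48.2 and 45.8 CPM in FO mice 1 to 5 and 26.6, 5.33, 26.3, 14.7 and 17.1 CPM in CO mice 1 to 5. FO mice 2, 4 and 5 were above every CO mouse, FO mouse 1 was within the CO range, and FO mouse 3, with 2 counts, was below 4 of the 5 CO mice. The CO range itself ends at CO mouse 1, with 4 counts, and CO mouse 2, with 1 count. The means of Acta2 were 33.7 ± 14.95 CPM with FO and 18.0 ± 8.87 CPM with CO (SD, 5 mice per diet). The log2 fold change was 0.99 (standard error 0.37, unadjusted p = 0.0144, edgeR adjusted p = 0.998), and a two-sided exact permutation test of mean log2 CPM gave p = 0.119, where the smallest p that 5 against 5 mice allow is 0.0079. Without FO mouse 4 the value was 0.80 (edgeR unadjusted p = 0.0554), and with library size alone as the scale it was 0.48 (edgeR unadjusted p = 0.450), a scale on which the median of all filtered genes moved to -0.55. Acta2 is also among the genes that the study itself picked from these mice, so the call is not independent evidence of its direction.

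Actg2, the actin typical of visceral smooth muscle, was close to the limit of detection in these lungs. FO mice 1 to 5 had 5, 3, 0, 1 and 1 counts of Actg2, and CO mice 1 to 5 had 0, 0, 0, 1 and 0. In 1 mouse, FO mouse 1, the gene exceeded the limit of 3 counts, and CO mouse 4 held the single CO count. The summed rate was 7.38 times higher with FO, with an exact 95% interval of 1.05 to 320 for the counting error of 10 against 1 counts. The fitted log2 fold change of 2.38 (standard error 1.44, unadjusted p = 0.0434, edgeR adjusted p = 0.905) depends on the handling of counts this low. The 95% interval drawn around it ran from -0.43 to 5.20. Its centre is a fold change shrunk towards 0, while its width comes from the unshrunk coefficient. It is therefore not the interval of the test, and its crossing of 0 cannot be read against the p-value. The exact permutation test of mean log2 CPM gave p = 0.048 (two-sided, not adjusted for the 10 genes). DESeq2 did not call the gene (2.03, unadjusted p = 0.197), nor did edgeR with library size alone (1.97, unadjusted p = 0.124). Leaving out FO mouse 1 took the fitted value to 1.82 (edgeR unadjusted p = 0.145), and the call was also lost without CO mouse 1, 2, 3 or 5, with p between 0.0578 and 0.110.

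Myh11, the motor of the contractile filament and among the most specific of smooth muscle genes, passed the threshold on the strength of 1 mouse. Its level in FO mice 1 to 5 was 14.9, 174, 20.1, 44.8 and 18.2 CPM, and in CO mice 1 to 5 it was 15.6, 21.8, 41.1, 6.31 and 57.9 CPM. FO mouse 2 held 224 of the 283 FO counts, and the other 4 FO mice lay within the CO range. The medians, 20.1 CPM in FO and 21.8 CPM in CO, were in the opposite order to the means of 54.4 ± 68.0 and 28.5 ± 20.8 CPM (SD, n = 5 mice each). The log2 fold change was 1.003 (standard error 0.34, unadjusted p = 0.00318, edgeR adjusted p = 0.905) in the fit of all genes with any count, in which the spread is almost entirely shared between genes, and the exact permutation test of mean log2 CPM gave p = 0.556. Without FO mouse 2 the value turned to -0.15 (edgeR unadjusted p = 0.692), and without CO mouse 4 it was 0.67 (edgeR unadjusted p = 0.0541). Robust estimation left the value at 1.003 (edgeR unadjusted p = 0.282), and DESeq2 gave 0.88 (unadjusted p = 0.286). With Rn45s left out, Myh11 was still called in the fit of any count, at 1.04 (edgeR unadjusted p = 0.00197), but it then also passed the filter, and in the filtered fit it was not called, at 0.96 (edgeR unadjusted p = 0.116).

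Myl9, the regulatory light chain whose phosphorylation starts the cross-bridge cycle, was not called. It was at 22.9, 13.2, 5.03, 24.9 and 12.1 CPM in FO mice 1 to 5 and at 20.7, 4.36, 13.0, 12.6 and 9.43 CPM in CO mice 1 to 5. Its means were 15.6 ± 8.20 and 12.03 ± 5.97 CPM, and its log2 fold change was 0.54 (standard error 0.49, unadjusted p = 0.259, edgeR adjusted p = 0.905). FO mice 1 and 4 were above all CO mice, while FO mouse 3 was near the bottom of the CO range on a single count.

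Mylk, the kinase that phosphorylates Myl9, was the best measured of the genes, with 1291 counts, and the only one with a log2 fold change below 0. It was at 193, 188, 206, 219 and 170 CPM in FO mice 1 to 5 and at 173, 266, 202, 212 and 323 CPM in CO mice 1 to 5. CO mice 2 and 5 were above all FO mice and the other 3 CO mice were within the FO range. The log2 fold change was -0.28 (standard error 0.22, unadjusted p = 0.214, edgeR adjusted p = 0.998), with a 95% interval from -0.73 to 0.18. The spread over FO mice, 195 ± 18.4 CPM, was narrower than the 235 ± 59.6 CPM over CO mice (SD, 5 mice per diet), a difference in spread that was not tested.

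**Figure D3:**
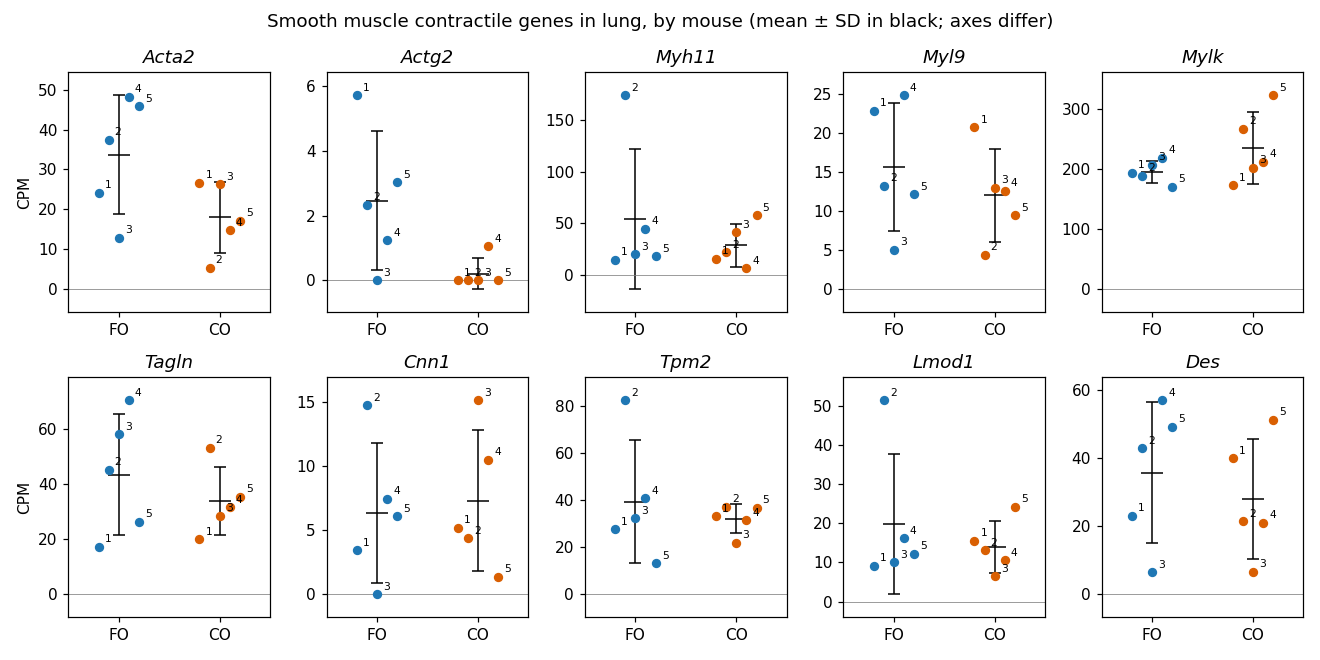
CPM of each gene (y axis, linear, a separate range per panel) in the 5 FO mice (blue) and 5 CO mice (orange), with mouse numbers beside the points and mean ± SD in black. Acta2 has 3 FO mice above every CO mouse, FO mouse 2 alone carries the high FO values of Myh11 (174 CPM) and Lmod1 (51.3 CPM), and CO mouse 5 has the highest Mylk (323 CPM).

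The actin-binding proteins Tagln, Cnn1, Tpm2 and Lmod1 were not called. Tagln, which cross-links actin, was at 17.3, 45.1, 58.1, 70.4 and 26.2 CPM in FO mice 1 to 5 and at 19.9, 53.3, 28.5, 31.5 and 35.4 CPM in CO mice 1 to 5. Both ends of the range were FO mice, and the log2 fold change of Tagln was 0.35 (standard error 0.37, unadjusted p = 0.355, edgeR adjusted p = 0.998). Cnn1, which slows the actin-activated myosin motor, had 3, 19, 0, 6 and 2 counts in FO mice 1 to 5 and 1, 1, 7, 10 and 1 in CO mice 1 to 5, with means of 6.35 ± 5.50 and 7.31 ± 5.49 CPM. No difference in Cnn1 was detectable at this depth (log2 fold change 0.00, 95% interval -1.21 to 1.22, edgeR unadjusted p = 0.996).

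Tpm2, which lies in the groove of the actin filament, was at 27.6, 82.5, 32.3, 40.8 and 13.1 CPM in FO mice 1 to 5 and at 33.2, 37.3, 21.9, 31.5 and 36.7 CPM in CO mice 1 to 5. The highest and the lowest values were FO mice, and the medians were 32.3 CPM in FO and 33.2 CPM in CO. Its log2 fold change was 0.43 (standard error 0.38, unadjusted p = 0.279, edgeR adjusted p = 0.998), and without FO mouse 2 it was -0.10. Lmod1, a nucleator of actin filaments, was at 9.16, 51.3, 10.1, 16.2 and 12.1 CPM in FO mice 1 to 5 and at 15.6, 13.1, 6.49, 10.5 and 24.2 CPM in CO mice 1 to 5. FO mouse 2 alone was above the CO range. The log2 fold change of Lmod1 was 0.64 (standard error 0.44, unadjusted p = 0.139, edgeR adjusted p = 0.905), it was -0.17 without FO mouse 2, and without CO mouse 5 it was 1.07 (edgeR unadjusted p = 0.0347).

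Des, the intermediate filament of muscle cells, was at 23.0, 42.8, 6.45, 56.8 and 49.1 CPM in FO mice 1 to 5 and at 39.9, 21.3, 6.57, 21.0 and 51.2 CPM in CO mice 1 to 5. Both groups spanned nearly the same range, and the lowest value in each rested on 1 and 3 counts. The log2 fold change was 0.45 (standard error 0.45, unadjusted p = 0.322, edgeR adjusted p = 0.998), and without CO mouse 5 it was 0.98 (edgeR unadjusted p = 0.0519).

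Levels of the 5 filtered genes were compared in pairs to ask whether they vary together from mouse to mouse, and no pair passed by Pearson's r or, by either measure, after adjustment. Over the 10 pairs of these genes, Pearson's r of log2 CPM across the 10 mice had a median of 0.14 and ran from -0.57 (Acta2 with Mylk) to 0.48 (Acta2 with Des), and 0 pairs passed a two-sided permutation test after Benjamini-Hochberg adjustment over the 10 pairs or at an unadjusted p under 0.05. By Spearman rho 2 pairs had an unadjusted permutation p under 0.05. Acta2 and Des had a rho of 0.67 (permutation p = 0.0382, adjusted 0.216), and r was 0.49 without the 2 mice farthest from the median of Acta2. For Tagln and Tpm2 rho was 0.66 (permutation p = 0.0432, adjusted 0.216) with r = 0.46, and r = 0.47 without the 2 mice farthest from the median of Tagln. Acta2 and Mylk, the actin and the kinase, had r = -0.57 (permutation p = 0.0874, adjusted 0.593) and rho = -0.53 (permutation p = 0.124, adjusted 0.310), with r = -0.57 without the 2 mice farthest from the median of Acta2. Taken as deviations from the diet means, the same pair had r = -0.44, and without FO mouse 2 and CO mouse 5 it had r = -0.70. Pairs share their libraries and depth, and on the scale of library size alone 5 of the 10 pairs passed, with a median r of 0.68.

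**Figure D4:**
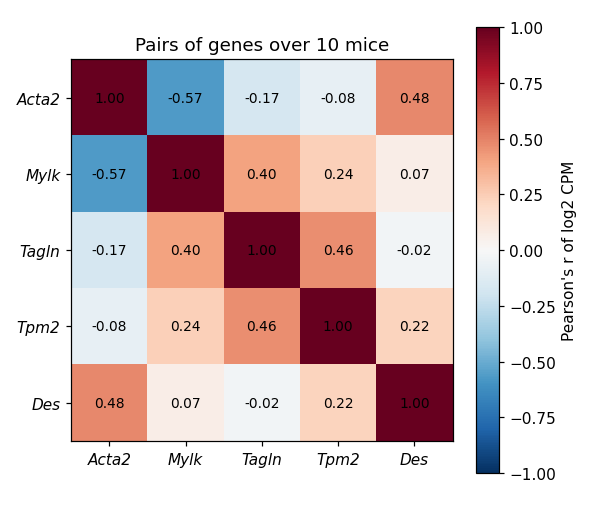
Pearson's r of log2 CPM (colour scale from -1 to 1, values printed in the cells) for each pair of the 5 genes that passed the filter on low counts, over 10 mice. The off-diagonal values run from -0.57 for Acta2 with Mylk to 0.48 for Acta2 with Des.

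The genes most like Mylk across the 10 mice, of which 4 are given, are best known for roles outside smooth muscle. Among 2433 other filtered genes, r with its log2 CPM was 0.83 for Gimap4, a lymphocyte GTPase (rho = 0.84), 0.82 for Nek7, a kinase of mitosis and the inflammasome (rho = 0.85), 0.78 for Ahnak, a very large scaffold protein (rho = 0.72), and 0.78 for Scd1, a fatty acid desaturase (rho = 0.73). Permutation p-values of r for these 4 were between 0.00023 and 0.0166, and adjusted over the genes compared the lowest was 0.560; those of rho ran from 0.0033 to 0.0238. Without CO mice 2 and 5, the mice farthest from the median of Mylk, r was 0.74 for Gimap4, 0.72 for Nek7, 0.53 for Ahnak and 0.46 for Scd1.

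Other genes of the contractile machinery and of its control were called about as often as the 2.91% of all filtered genes. Of 22 other genes of filaments and dense bodies, 16 passed the filter and 0 were called by edgeR, at an unadjusted p under 0.05, in either fit, with a median log2 fold change of 0.04. By mean level over both diets, the best expressed were Tagln2, a relative of Tagln in non-muscle cells, at 286 ± 62.3 CPM in FO and 287 ± 73.1 CPM in CO mice, and Csrp1, a LIM protein of the cytoskeleton, at 289 ± 67.8 and 284 ± 61.8 CPM (SD, n = 5 mice each).

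Of 31 genes that signal to smooth muscle myosin, 17 passed the filter, 0 were called higher and 1 lower, and 4 of the 17 had a log2 fold change above 0 (median -0.10). The gene called lower was Plcb1, a phospholipase that releases the calcium-mobilizing messenger IP3, at 21.7 ± 10.1 CPM in FO and 36.7 ± 7.64 CPM in CO mice. Its log2 fold change was -0.70 (standard error 0.31, unadjusted p = 0.0351, edgeR adjusted p = 0.998). In the fit of any count it was not called (edgeR unadjusted p = 0.0711), whereas its relative Plcb3 was called lower there (edgeR unadjusted p = 0.0265). The small GTPase Rhoa, among the most abundant of the list, was at 284 ± 58.3 CPM in FO and 281 ± 87.0 CPM in CO mice.

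Most receptors that contract or relax smooth muscle had too few counts for the filter. Of 19 in the table, 15 had a count, 1 passed the filter and 0 were called there by edgeR. In the fit of any count 1, the adrenergic receptor Adra1b, was called higher on few counts (FO mean 1.02 CPM). The subunits of soluble guanylate cyclase, which relaxes smooth muscle in response to nitric oxide, were the best expressed: Gucy1a3 was at 38.0 ± 6.09 CPM in FO and 36.5 ± 18.9 CPM in CO mice, and Gucy1b3 at 20.7 ± 13.3 and 24.7 ± 16.5 CPM (SD, n = 5 mice each). Of 16 transcription factors of smooth muscle genes, 7 passed the filter, 0 were called by edgeR in either fit, and 1 of the 7 had a log2 fold change above 0 (median -0.13). For Srf the log2 fold change was -0.33 (standard error 0.29, edgeR unadjusted p = 0.278), and Myocd was at 0.843 ± 1.49 CPM in FO mice, below the limit of 3 counts. Klf4, which opposes the contractile state, and Mef2a led this list by level, at 150 ± 45.5 and 81.3 ± 11.8 CPM in FO and 168 ± 76.3 and 98.8 ± 28.0 CPM in CO mice.

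The lung was as labelled, with the surfactant gene Sftpc at 1157 ± 312 CPM in FO and 842 ± 373 CPM in CO mice and the club cell gene Scgb1a1 at 1064 ± 283 and 1369 ± 603 CPM. Transcripts of other muscle were present and uneven. Of 14 cardiac genes, such as are made by the muscle sleeves of the pulmonary veins, 13 had counts. In the fit of any count 5 of these were called higher in FO mice. Of 11 skeletal muscle genes 9 had counts and 4 were called higher there. Among all genes in that fit 2.58% were called higher. Summed over the list, cardiac genes were at 135, 379, 101, 148 and 69.8 CPM in FO mice 1 to 5 and at 31.1, 61.1, 102, 43.1 and 217 CPM in CO mice 1 to 5. Skeletal muscle genes were at 98.5 and 109 CPM in FO mice 1 and 2 and between 3.04 and 29.6 CPM in the other 8 mice. The leading cardiac genes were Ttn (log2 fold change 1.501), Myl3 (2.80), Tnnt2 (1.24) and Tnni3 (1.39), and the leading skeletal genes Tnnc2 (3.97), Acta1 (2.34) and Tnnt3 (2.07). Each had an unadjusted p-value under 0.05 and none passed adjustment (edgeR). As for Myh11, the spread in this fit is almost entirely shared between genes. FO mouse 2 held 148 of the 211 counts of Ttn and 66 of the 126 of Tnnt2. FO mice 1 and 2 held 26 and 16 of the 50 counts of Myl3 and 19 and 18 of the 38 of Tnnc2. For Acta1 they held 25 and 25 of 58, and for Tnnt3 12 and 42 of 67. Tnni3 was spread more widely, with 15, 17, 2, 15 and 6 counts in FO mice 1 to 5. Myh6, the most abundant cardiac gene, was at 46.6 ± 46.6 CPM in FO and 33.3 ± 33.7 CPM in CO mice, and Tnni2, second to Tnnt3 among skeletal genes, at 8.29 ± 8.14 and 5.28 ± 1.11 CPM.

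The CPM given above for the 5 filtered genes are on the scale of the filtered fit and do not add up to the sums given here. In FO mouse 3, for example, Acta2 was at 12.9 CPM on that scale and at 10.1 CPM on the scale of all genes with any count. On the latter scale, the summed level of the 10 smooth muscle genes was 340, 659, 282, 532 and 334 CPM in FO mice 1 to 5 and 285, 358, 357, 352 and 568 CPM in CO mice 1 to 5. FO mouse 2 and CO mouse 5 were thus high for smooth muscle genes, cardiac genes and Malat1 alike, and FO mouse 4 was high for smooth muscle genes with a Malat1 share of 0.262%. The part of this tissue content or of the library kit in the results was not tested. Measured without FO mouse 2 and CO mouse 5, Acta2 remained called, at 0.94 (edgeR unadjusted p = 0.0439), and Myh11 did not, at 0.40 (edgeR unadjusted p = 0.358). Without FO mice 1 and 2, which held most skeletal muscle counts, Acta2 also remained called, at 1.14 (edgeR unadjusted p = 0.0172), and Myh11 was at 0.03 (edgeR unadjusted p = 0.943).

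**Figure D5:**
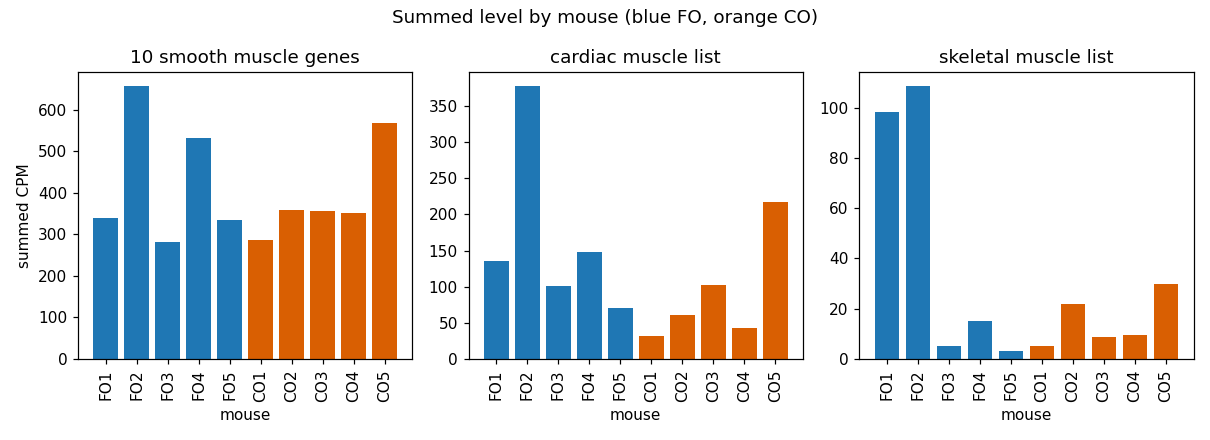
Summed CPM (y axis, linear from 0, a separate range per panel) of the 10 smooth muscle genes, of the cardiac muscle list and of the skeletal muscle list in each of the 10 mice (x axis), FO in blue and CO in orange. FO mouse 2 is the highest in all 3 panels (659, 379 and 109 CPM), and CO mouse 5 is second for the smooth muscle (568 CPM) and cardiac (217 CPM) sums.

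In lists for other cells that could carry these genes, counts of calls in the fit of any count are read against the 4.15% of all genes called there. Of 11 fibroblast genes 1, Pi16, was called higher (18.4 ± 6.07 and 6.95 ± 4.70 CPM in FO and CO mice), and the sums were 731 to 1069 CPM in FO and 633 to 1134 CPM in CO mice, led by Inmt and Col1a2. Of 10 pericyte genes in the fit of any count, 1 was called higher (Kcnj8, on few counts) and 1 lower, the channel Trpc6 (6.86 ± 3.76 and 13.9 ± 11.8 CPM), with sums of 84.6 to 126 CPM in FO and 36.3 to 123 CPM in CO mice, led by Postn and Abcc9. Mesothelial genes, led by Gpm6a and Lrrn4, summed to at most 36.1 CPM in any mouse, and 0 of the 5 with counts were called. For endothelium, led by Egfl7 and Pecam1, 0 of 7 genes were called in either direction, and 0 of 8 for alveolar epithelium, led by Sftpc and Sftpa1. The only airway epithelial gene called was Scgb3a1, lower in FO mice in the fit of any count, in a list led by Scgb1a1 and Sec14l3. All these calls are edgeR calls at an unadjusted p under 0.05, and in the filtered fit 0 genes of the marker lists were called.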

How the data were processed

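Lung RNA of 10 mice was sequenced as single-end reads with TruSeq or riboZero kits. According to the labels and methods, reads were aligned to mm10 with STAR 2.4.0f1, handled with SAMtools 0.1.19 and counted per gene with htseq-count. The annotation and strand setting are not given in the sources used here. The deposited values are raw counts per gene symbol, as the authors made them, with no normalization.

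From these counts, edgeR 4.0.16 (R 4.3.3) was used for TMM scaling, filterByExpr with its defaults (minimum count 10, minimum total 15) and the quasi-likelihood test of FO minus CO over 5 and 5 mice. Genes that the filter removed were taken from the same fit on all genes with any count. The CPM of each gene are on the scale of its own fit. Sums over lists and CPM per kb are on the scale of all genes with any count. A gene was called at an unadjusted p under 0.05, and Benjamini-Hochberg values over all genes tested are given. Standard errors are the fitted coefficient over the square root of its F statistic. Each sample was 1 mouse. Exact permutation tests of mean log2 CPM used all 252 assignments of the diets. Correlations used log2 CPM with a prior count of 2, and 100000 permutations. Intervals for shares are exact binomial (Clopper-Pearson). The scripts were tested on simulated data. Alternatives were DESeq2 1.42.0, other scalings, robust estimation, the replicate number as a block, and mice left out, with the tested genes kept.

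The genes and lists were chosen with earlier results of these data known. Named are all 10 genes and, from each list, at most 4 genes called (on at least 20 counts where the filter removed them) and the 2 with the highest mean CPM, together with the 5 genes most correlated with Mylk; 2 genes that this rule names are not reported here. Srf, Myocd, Myh10, Plcb3, Adra1b, Kcnj8 and Scgb3a1 were named after their values were seen. The search for words 1 base off the CArG box was also added then. Exons and transcripts came from GENCODE M21, and promoters and positions from RefSeq GRCm38.p6.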

Additional observations from a re-analysis of the deposited data

Results flagged for a closer look

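The extreme mouse of each diet was compared with its nearest neighbour by Dixon's ratio (critical value 0.71 for 5 mice) for the CPM of the 10 genes, their summed share, and the shares of Rn45s and Malat1. In 5 of 26 groups a mouse stood apart. For independent and normally distributed values about 1 in 20, or 1.3 groups, would do so. These groups share libraries and include counts of 0, so that number is no measure of chance here. Myh11 was at 174 CPM in FO mouse 2, against 44.8 CPM in the next FO mouse. Lmod1 was at 51.3 CPM in the same mouse, against 16.2 CPM. Malat1 made up 8.53% of non-Rn45s counts in FO mouse 2, and in CO mouse 5 it made up 6.15%. The remaining one is Actg2 at 1.05 CPM in CO mouse 4, which is a single count where the other CO mice had 0.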

How the results depend on the processing

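With 2797 counts over 10 genes and mice, depth limits every value, and Actg2 and Cnn1 most. Over 195 alternative values of the 10 fold changes, 174 kept their direction. Among the filtered genes the count called was 1, and it was 0 with library size alone, 3 over genes with any count, and 0 to 1 with each mouse left out (0 without FO mouse 4). Over any count the 3 calls became 1 with DESeq2, 0 with library size alone, 1 without FO mice 1 and 2, and 2 to 4 with each mouse left out. Acta2 was called under 18 of 20 alternatives (log2 fold change 0.48 to 1.18), Myh11 under 11 of 19 and Actg2 under 8 of 19. The count of correlated pairs was 0 with each mouse left out and 5 with library size alone.

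No pairing of mice by number was seen: deviations of same-numbered mice correlated at -0.12 on average, and 0 of 5 FO mice were closest to their own number. With 5 pairs of shallow libraries this cannot exclude a pairing. With the replicate number as a block, Acta2 was the 1 gene called in either fit; Myh11 (0.73) and Actg2 (1.99) were not called, and Cnn1 was at -0.067.

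Cnn1, at 0.00, turned to -0.13 with DESeq2, -0.038 with RLE size factors, -0.52 with library size alone, -0.96 without FO mouse 2 and CO mouse 5, -0.44 without FO mice 1 and 2 and -0.030 without FO mouse 3 and CO mice 1 and 2. Library size alone also turned Tagln (-0.28), Des (-0.10), Tpm2 (-0.15) and Myl9 (-0.031), on a scale that moved all genes with any count by a median of -0.43 and filtered genes by -0.55. Tpm2 was at -0.011 without FO mouse 2 and CO mouse 5 and at -0.067 without FO mice 1 and 2, where Lmod1 was at -0.055. With each mouse left out, values ran from -0.59 to 0.40 for Cnn1, -0.10 to 0.60 for Tpm2, -0.17 to 1.07 for Lmod1 and -0.15 to 1.56 for Myh11. The alternatives without FO mice 1 and 2, or without the 3 shallowest mice, were chosen after seeing the data. The cause of these changes was not tested.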
